A study of Mus musculus with 4 samples.

Results

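Apoptosis regulators are described here as 9 genes of the intrinsic and extrinsic death pathways: the pro-survival BCL2 proteins *Bcl2*, *Bcl2l1* and *Mcl1*, the effector *Bak1*, the BH3-only genes *Bcl2l11*, *Bid* and *Bad*, and the initiator caspases *Casp8* and *Casp9*. They were taken by name from the 27998 genes of the count matrices, with earlier results of these data known, and each of the 9 was found there once. The cells were satellite cells, the stem cells of skeletal muscle, sorted as ITGA7+/VCAM+/Lin- from the hindlimb muscles of male mice and captured for single-cell RNA sequencing on the 10X Genomics platform, which reads the 3′ ends of transcripts. B10 is C57/Bl10ScsSn at 15 weeks and *mdx* is C57BL/10ScSn-Dmdmdx at 11 weeks, a dystrophin mutation on the same background. DBA is DBA/2 at 13 weeks and D2-*mdx* is D2.B10-Dmdmdx at 14 weeks, the same mutation on the DBA/2 background. Each strain is 1 library from 2 pooled mice, so the strain, the library and the age cannot be told apart, and no test was run. Intervals are exact 95% intervals (Poisson for a level, binomial for a ratio or a share) and cover counting error only.

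Cells that die by the intrinsic pathway lose the integrity of the outer mitochondrial membrane, which BAX and BAK open and which BCL2, BCL-XL and MCL1 keep closed by binding them. BH3-only proteins such as BIM (*Bcl2l11*), BID and BAD sense stress or loss of growth signals and neutralize the pro-survival proteins or activate the effectors. Released cytochrome c assembles the apoptosome that activates caspase 9, whereas caspase 8 is activated at death receptors and can cleave BID to join the pathways. In muscle, satellite cells leave quiescence to divide and fuse, and their survival along this course limits the number of cells available for repair.

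Expression was measured as unique molecular identifiers (UMIs) per gene. UMIs were summed over the cells of a library and scaled by the total UMIs of those cells to CPM, the usual unit of relative abundance, and because they count the 3′ end of transcripts the levels are compared between libraries and cell states and not between genes. The deposited libraries hold 43542853 to 75482888 UMIs, and after filters on genes, mitochondrial UMIs and predicted doublets 3279 to 6313 cells remained, of which 2700 to 4818 were myogenic, with 30126637 to 40366107 UMIs. *Dmd*, the mutated gene, stood at 324 CPM in B10 and 287 in DBA and at 119 in *mdx* and 94.4 in D2-*mdx*. The 5 markers of muscle stem cells (*Pax7*, *Myf5*, *Chodl*, *Calcr*, *Nppc*) were detected in the myogenic cells of each library, as were *Itga7* and *Vcam1*, the genes of the sort. Of 6 white blood cell markers, 5 were detected in the myogenic cells of B10, where *Ptprc* was at 0, with an interval of up to 0.0925 CPM, and 6 in the other libraries. They summed to 1.23 CPM in B10 against 21.9 in *mdx* and 6.94 in DBA against 94.3 in D2-*mdx*. Between 3 and 8 cell barcodes were shared by each pair of libraries.

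The promoters are given for the 3 genes that, among those reaching 10 CPM, were at least 1.5-fold higher in D2-*mdx* than in DBA, *Bcl2l11*, *Casp8* and *Bak1*. Sequences are the 250 bases before the RefSeq transcript start on GRCm38.p6, 5′ to 3′ on the strand of the gene, with matches to the searched motifs in capitals. They lie at chr2:128125788-128126037 (plus strand), chr1:58802252-58802501 (plus strand) and chr17:27028628-27028877 (minus strand).
*Bcl2l11*: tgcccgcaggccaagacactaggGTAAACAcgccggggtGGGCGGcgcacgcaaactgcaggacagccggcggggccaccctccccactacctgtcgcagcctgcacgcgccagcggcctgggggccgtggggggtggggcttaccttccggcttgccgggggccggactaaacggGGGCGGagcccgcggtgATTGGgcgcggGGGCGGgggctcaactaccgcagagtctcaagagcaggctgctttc
*Casp8*: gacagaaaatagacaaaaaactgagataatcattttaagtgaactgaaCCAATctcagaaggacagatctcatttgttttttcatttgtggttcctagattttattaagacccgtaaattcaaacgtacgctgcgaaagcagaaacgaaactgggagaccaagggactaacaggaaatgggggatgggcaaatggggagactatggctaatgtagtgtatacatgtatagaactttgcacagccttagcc
*Bak1*: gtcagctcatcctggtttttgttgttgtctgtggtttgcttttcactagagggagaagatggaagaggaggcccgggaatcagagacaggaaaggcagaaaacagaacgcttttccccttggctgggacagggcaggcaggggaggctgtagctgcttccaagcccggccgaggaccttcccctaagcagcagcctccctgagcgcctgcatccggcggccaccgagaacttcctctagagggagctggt

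The 3 windows differ in base composition: G and C make up 72.0% of the *Bcl2l11* window, 58.4% of that of *Bak1* and 39.6% of that of *Casp8*, against a median of 52.4% over 32851 RefSeq promoters. The letters GTAAACA, to which FOXO factors bind, were found on either strand in 3.17% of all windows and, among the 9 genes, in that of *Bcl2l11*, from 227 to 221 bases before the start. The *Bcl2l11* window also holds 3 GC boxes (GGGCGG, in 32.7% of windows) and 1 CCAAT box (CCAAT, in 33.8%), that of *Casp8* holds 1 CCAAT box from 202 to 198 bases before the start, and that of *Bak1* holds none of the searched letters. GC boxes also occur in the windows of *Bcl2* (7), *Casp9* (4), *Bid* (3), *Bad* (3) and *Mcl1* (1). The AP-1 site TGANTCA (6.75% of windows) and the CRE TGACGTCA (1.55%) were in none of the 9. A match is a run of letters and not a measured site. The windows of *Casp8* and *Bak1* lie wholly inside the annotated genes: the listed start of *Casp8* is an annotated start but not its most upstream one, and that of *Bak1* lies 67 bases from the nearest annotated start.

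To ask how apoptosis regulators differ between dystrophic and healthy satellite cells, *mdx* was compared with B10 and D2-*mdx* with DBA over all myogenic cells. Genes entered a pair when either library reached 10 CPM. In *mdx*, 1 of the 7 regulators that passed this minimum was at least 1.5-fold higher, *Bcl2l11*, beside 10.3% of the 8477 genes compared, and 0 were at least 1.5-fold lower, beside 13.6%. The count of 1 was 3 with TMM library sizes, 2 with DESeq2 size factors and 4 over all cells. The share of all genes past 1.5-fold was not taken under these settings. Their median log2 ratio went from -0.035 to 0.025, 0.028 and 0.025. In D2-*mdx*, 3 of 7 were at least 1.5-fold higher, *Bcl2l11*, *Bak1* and *Casp8*, beside 13.0% of 8500 genes, and 0 were at least 1.5-fold lower, beside 17.6%. *Bid* passed the minimum in neither pair, *Casp8* did not in the first, where it reached 9.83 CPM, and *Casp9* did not in the second. *Bcl2l11* and *Casp8* passed in the second pair only through their level in D2-*mdx*, so their count there was fixed in part by the minimum. Of the 5 regulators at 10 CPM in both DBA and D2-*mdx*, 1 was at least 1.5-fold higher, *Bak1*, beside 9.82% of 7363 genes. At 2-fold, 1 of the 7 was higher in *mdx*, *Bcl2l11*, beside 4.70% of genes, and 1 of 7 in D2-*mdx*, *Casp8*, beside 5.82%, and 0 were lower in either, beside 5.19% and 5.84%. The median log2 ratio of the regulators that passed was 0.26 in *mdx* and 0.50 in D2-*mdx*, against -0.03 and -0.07 over all genes compared. The median in D2-*mdx* is also set in part by the minimum. It includes *Bcl2l11* and *Casp8* and leaves out *Bid* and *Casp9*, which had log2 ratios of 0.64 and -0.48. The 2 comparisons use different control libraries.

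**Figure D1:**
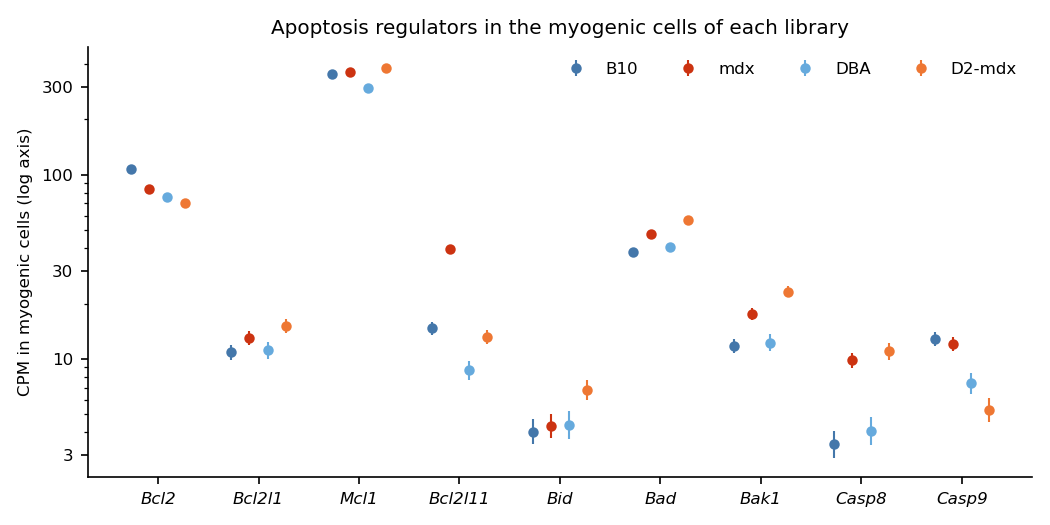
Levels of the 9 apoptosis regulators (horizontal axis) in CPM (vertical axis, logarithmic) in the myogenic cells of the 4 libraries, to be compared within a gene; points are the level of a library and lines the exact Poisson 95% interval, which covers counting error only. *Bcl2l11* is highest in *mdx* at 39.8 CPM, *Casp8* is higher in *mdx* and D2-*mdx* (9.83 and 11.0) than in B10 and DBA (3.46 and 4.08), and *Casp9* is lower on the DBA/2 background.

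Of the pro-survival genes, *Bcl2* (ENSMUSG00000057329, GRCm38 chr1:106538178-106714274, minus strand), the founding member of the family, stood at 107 CPM (104 to 110) in B10 against 84.4 (81.5 to 87.2) in *mdx* and 76.2 (73.2 to 79.4) in DBA against 70.8 (68.0 to 73.6) in D2-*mdx*. It was highest in B10 and the intervals of DBA and D2-*mdx* overlap slightly. The log2 ratio was -0.35 (-0.41 to -0.28) in *mdx* over B10 and -0.11 (-0.19 to -0.03) in D2-*mdx* over DBA, below 1.5-fold in both, and it turned positive when muscle stem cells alone were compared, as given further on. *Mcl1* (ENSMUSG00000038612, chr3:95658788-95663176, plus strand), which encodes a short-lived pro-survival protein, stood at 355 CPM (349 to 361) in B10 against 360.1 (354 to 366) in *mdx* and 297 (291 to 303) in DBA against 381 (375 to 388) in D2-*mdx*. B10 and *mdx* were not separated at this depth, with a log2 ratio of 0.02 (-0.01 to 0.05), and the lowest level was that of DBA, with 0.36 (0.32 to 0.40) for D2-*mdx* over DBA. *Bcl2l1* (ENSMUSG00000007659, chr2:152780668-152831728, minus strand), the gene of BCL-XL, stood at 10.9 CPM (9.88 to 12) in B10 against 13.1 (12 to 14.2) in *mdx* and 11.2 (10.0 to 12.4) in DBA against 15.1 (13.9 to 16.5) in D2-*mdx*. It was somewhat higher in both dystrophic libraries, with log2 ratios of 0.26 (0.08 to 0.45) and 0.44 (0.24 to 0.64).

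*Bak1* (ENSMUSG00000057789, chr17:27019810-27029009, minus strand), which encodes the membrane-opening effector BAK, stood at 11.8 CPM (10.7 to 12.9) in B10 against 17.6 (16.3 to 19.0) in *mdx* and 12.3 (11.1 to 13.6) in DBA against 23.2 (21.6 to 24.9) in D2-*mdx*. The controls overlap and both dystrophic libraries lie above them. The fold was 1.49 in *mdx*, with a log2 ratio of 0.58 (0.41 to 0.75), just inside the limit of 1.5, and 1.89 in D2-*mdx*, with 0.92 (0.74 to 1.10).

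Of the BH3-only genes, *Bcl2l11* (ENSMUSG00000027381, chr2:128126038-128162547, plus strand), the gene of BIM, stood at 14.7 CPM (13.6 to 16) in B10 against 39.8 (37.9 to 41.8) in *mdx* and 8.70 (7.68 to 9.82) in DBA against 13.2 (12 to 14.4) in D2-*mdx*. The level of *mdx* stood above the other libraries, and that of D2-*mdx* overlapped with the healthy B10. The log2 ratio was 1.43 (1.30 to 1.57), or 2.70-fold, in *mdx* over B10 and 0.60 (0.38 to 0.82), or 1.52-fold, in D2-*mdx* over DBA. *Bad* (ENSMUSG00000024959, chr19:6941861-6951899, plus strand), whose protein binds BCL-XL when growth factor signals are low, stood at 38.2 CPM (36.3 to 40.1) in B10 against 47.8 (45.7 to 49.9) in *mdx* and 40.5 (38.3 to 42.8) in DBA against 57.2 (54.7 to 59.7) in D2-*mdx*. Both dystrophic libraries lay above both controls, by log2 ratios of 0.32 (0.23 to 0.42) and 0.50 (0.39 to 0.60). *Bid* (ENSMUSG00000004446, chr6:120891930-120916853, minus strand), the substrate of caspase 8, rested on 161, 175, 132 and 238 UMIs in B10, *mdx*, DBA and D2-*mdx*, or 4.04, 4.34, 4.38 and 6.82 CPM. The first 3 libraries overlap in their intervals and D2-*mdx* stands above them, with a log2 ratio over DBA of 0.64 (0.33 to 0.96) and of *mdx* over B10 of 0.10 (-0.21 to 0.42).

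Of the initiator caspases, *Casp8* (ENSMUSG00000026029, chr1:58795374-58847503, plus strand) rested on 138 UMIs in B10 against 397 in *mdx* and 123 in DBA against 384 in D2-*mdx*, or 3.46 CPM (2.91 to 4.09), 9.83 (8.89 to 10.9), 4.08 (3.39 to 4.87) and 11.0 (9.93 to 12.2). The controls overlap each other, the dystrophic libraries overlap each other, and the controls and the dystrophic libraries do not overlap. The log2 ratio was 1.51 (1.22 to 1.80), or 2.84-fold, in *mdx* and 1.43 (1.13 to 1.73), or 2.69-fold, in D2-*mdx*. The summed white blood cell and endothelial markers, types in which *Casp8* stood higher still, were also higher in the myogenic cells of the dystrophic libraries: the white blood cell markers reached 0.0952% of their level in their own cell type in *mdx* and 0.409% in D2-*mdx*, against 0.00533% in B10 and 0.0301% in DBA, and the endothelial markers 0.130% and 0.158% against 0.0367% and 0.0406%. The sort selected against CD31, CD45, CD11b and Sca-1, surface markers of these types among others. Their part in the *Casp8* ratio was not tested. *Casp9* (ENSMUSG00000028914, chr4:141793612-141815976, plus strand), the caspase of the apoptosome, stood at 12.8 CPM (11.7 to 13.9) in B10 against 12.1 (11.0 to 13.2) in *mdx* and 7.40 (6.46 to 8.44) in DBA against 5.30 (4.56 to 6.12) in D2-*mdx*. The log2 ratio of *Casp9* was -0.08 (-0.26 to 0.10) in *mdx* over B10 and -0.48 (-0.77 to -0.19) in D2-*mdx* over DBA, and both libraries of the DBA/2 background stood below B10 and *mdx*.

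**Figure D2:**
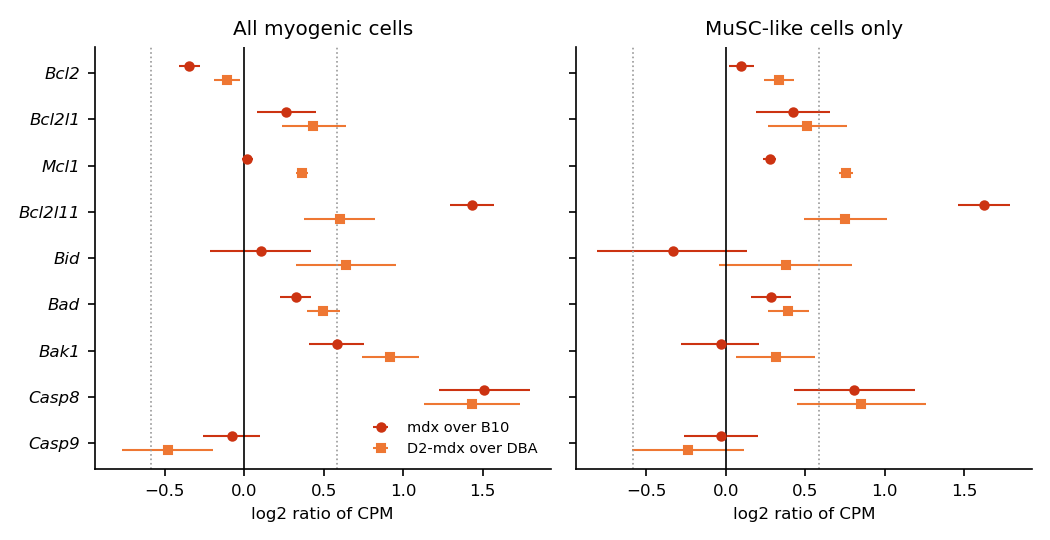
Log2 ratios (horizontal axis) of the 9 apoptosis regulators for *mdx* against B10 (circles) and D2-*mdx* against DBA (squares), over all myogenic cells and over muscle stem cell-like (MuSC-like) cells alone; dotted lines mark 1.5-fold and bars exact binomial 95% intervals, which cover counting error only. *Casp8* goes from 1.51 and 1.43 over all myogenic cells to 0.81 and 0.85 in MuSC-like cells, *Bak1* from 0.58 and 0.92 to -0.03 and 0.31, and *Bcl2* from negative to positive values.

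The healthy strains and the dystrophic strains were also compared with each other, for the difference between the backgrounds. In DBA over B10, 2 of the 7 regulators that passed 10 CPM were at least 1.5-fold lower, *Bcl2l11* and *Casp9*, beside 4.89% of 8344 genes, and 0 were at least 1.5-fold higher, beside 4.0%. Both passed only through B10, and 0 of the 5 regulators at 10 CPM in both libraries were at least 1.5-fold lower, beside 3.36% of 7707 genes. In D2-*mdx* over *mdx*, the same 2 of 8 were at least 1.5-fold lower, beside 4.50% of 8177 genes, and 0 were higher, beside 4.54%. *Casp9* passed there only through *mdx*, which leaves *Bcl2l11* as 1 of the 6 regulators at 10 CPM in both, beside 234 of 7545 genes. At 2-fold, 0 of 7 were lower in DBA, beside 1.79%, and 2 of 8 in D2-*mdx*, beside 1.53%, with 0 higher in either, beside 1.76% and 2.01%. The log2 ratio of *Bcl2l11* was -0.76 (-0.98 to -0.55) in DBA over B10 and -1.60 (-1.75 to -1.45) in D2-*mdx* over *mdx*, a level 3.02-fold lower in D2-*mdx*. That of *Casp9* was -0.79 (-1.02 to -0.56) and -1.19 (-1.44 to -0.94), 2.28-fold lower in D2-*mdx*. *Bid*, below the minimum in each library, had a log2 ratio of 0.12 (-0.22 to 0.46) between the controls and 0.65 (0.37 to 0.94) between the dystrophic strains. *Bcl2* stood lower on the DBA/2 background in both pairs, at -0.49 (-0.56 to -0.42) and -0.25 (-0.33 to -0.18), and *Casp8* was not separated in either, at 0.24 (-0.12 to 0.60) and 0.16 (-0.04 to 0.37).

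The myogenic cells fell into 8 clusters, named from their markers and hence only like the types whose names they bear. MuSC-like cells made up 90.0% of the myogenic cells of B10, 63.2% of *mdx*, 90.7% of DBA and 65.4% of D2-*mdx*. DMD-enriched-like cells, a cluster led by *Postn* and the collagens *Col1a1* and *Col1a2*, made up 3.35%, 22.0%, 3.96% and 17.5%, in the same order, cycling progenitor-like cells 2.24%, 7.29%, 2.48% and 10.7%, and differentiating myocyte-like cells 1.77%, 5.92%, 2.41% and 5.62%. The clusters and their names were rebuilt here, so a difference from the study may come from them, and the control levels of DMD-enriched-like cells rest on the 148 cells of B10 and 107 of DBA that this clustering placed there. A ratio over all myogenic cells therefore holds both the mixture of states and the level within each. Where clusters are compared with each other, the genes described here were among those clustered, and the levels are a description.

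Within MuSC-like cells, *Bcl2l11* was again higher in both dystrophic libraries: 14.9 CPM (13.6 to 16.2) in B10 against 45.8 (42.8 to 49.1) in *mdx* and 9.05 (7.94 to 10.3) in DBA against 15.3 (13.4 to 17.3) in D2-*mdx*. The log2 ratios were 1.63 (1.47 to 1.79) and 0.75 (0.49 to 1.01). *Casp8* stood at 3.54 CPM (2.94 to 4.23), 6.21 (5.12 to 7.47), 3.66 (2.97 to 4.46) and 6.61 (5.43 to 7.96) in B10, *mdx*, DBA and D2-*mdx*, and its log2 ratios of 0.81 (0.43 to 1.19) and 0.85 (0.45 to 1.26) were smaller than over all myogenic cells. *Bak1* stood at 11.7 CPM in B10 against 11.5 in *mdx* and 11.7 in DBA against 14.5 in D2-*mdx*. The *mdx* and B10 levels of *Bak1* were not separated in these cells, with a log2 ratio of -0.03 (-0.28 to 0.21), and D2-*mdx* over DBA gave 0.31 (0.07 to 0.56). *Bcl2* was higher in the dystrophic MuSC-like cells, at 118 CPM (113 to 123) in *mdx* against 111 (107 to 114) in B10 and 97.4 (92.7 to 102) in D2-*mdx* against 77.1 (73.7 to 80.5) in DBA. Its log2 ratios of 0.10 (0.02 to 0.18) and 0.34 (0.24 to 0.43) are opposite in sign to those over all myogenic cells. The share of MuSC-like cells with at least 1 UMI of *Bcl2*, each cell thinned to 3000 UMIs, was not separated between B10 and *mdx*. It was 28.8% (27.4 to 30.2) in B10 against 28.5% (26.9 to 30.2) in *mdx*, and 19.7% (18.1 to 21.3) in DBA against 24.2% (22.6 to 25.9) in D2-*mdx*. *Mcl1* stood at 362 CPM in B10 against 439 in *mdx* and 300 in DBA against 507 in D2-*mdx*, with log2 ratios of 0.28 (0.24 to 0.32) and 0.76 (0.71 to 0.80). Of the other regulators, *Bcl2l1* had log2 ratios of 0.43 and 0.51, *Bad* of 0.29 and 0.39, *Bid* of -0.33 (-0.81 to 0.13) and 0.38 (-0.04 to 0.80), and *Casp9* of -0.03 (-0.26 to 0.20) and -0.24 (-0.59 to 0.11).

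Among cycling progenitor-like cells, *Bcl2* stood lower and *Bak1* and *Casp8* higher in both dystrophic libraries than in their controls. *Bcl2* stood there at 64.5 CPM (51.9 to 79.3) in B10 against 34.0 (28.8 to 40.0) in *mdx* and 63.2 (48.9 to 80.4) in DBA against 22.7 (19.3 to 26.5) in D2-*mdx*, with log2 ratios of -0.92 (-1.31 to -0.53) and -1.48 (-1.90 to -1.04). In differentiating myocyte-like cells it stood at 79.4, 33.5, 57.7 and 29.3 CPM in B10, *mdx*, DBA and D2-*mdx*, with -1.24 (-1.65 to -0.84) and -0.98 (-1.49 to -0.46). The healthy values of that state rest on 78 cells in B10 and 65 in DBA. In DMD-enriched-like cells the log2 ratios of *Bcl2* were -0.50 (-0.74 to -0.25) and -0.24 (-0.53 to 0.05), so the second was not separated at this depth. *Bak1* in cycling progenitor-like cells stood at 12.2 CPM (7.10 to 19.5) in B10 against 26.9 (22.2 to 32.2) in *mdx* and 14.4 (8.04 to 23.7) in DBA against 38.2 (33.7 to 43.1) in D2-*mdx*, with log2 ratios of 1.14 (0.40 to 1.97) and 1.41 (0.66 to 2.27). *Casp8* in these cells rested on 4 UMIs in B10 against 103 in *mdx* and 8 in DBA against 151 in D2-*mdx*, or 2.87, 23.7, 7.66 and 21.8 CPM, with log2 ratios of 3.05 (1.65 to 4.95) and 1.51 (0.49 to 2.75). The healthy values rest on 99 cells of this cluster in B10 and 67 in DBA. With all cells clustered, the *Top2a* group held 31 from B10 and 50 from DBA, beside 336 from *mdx* and 443 from D2-*mdx*. The cluster used here had mature myofibre as its second name, at a marker mean of 1.95 beside 2.50, and myonuclei were not removed. Its smooth muscle markers summed to 1298 CPM for B10 and 1873 for DBA, above the 653 of *mdx* and 585 of D2-*mdx*. Whether these ratios hold within cycling cells alone was not tested. In differentiating myocyte-like cells *Casp8* had 0 UMIs in B10, with an interval of up to 3.37 CPM, and 4.97 CPM (2.99 to 7.76) in *mdx*. It stood at 2.02 (0.245 to 7.31) in DBA against 4.50 (2.33 to 7.87) in D2-*mdx*, and the intervals of the levels overlap in both pairs.

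**Figure D3:**
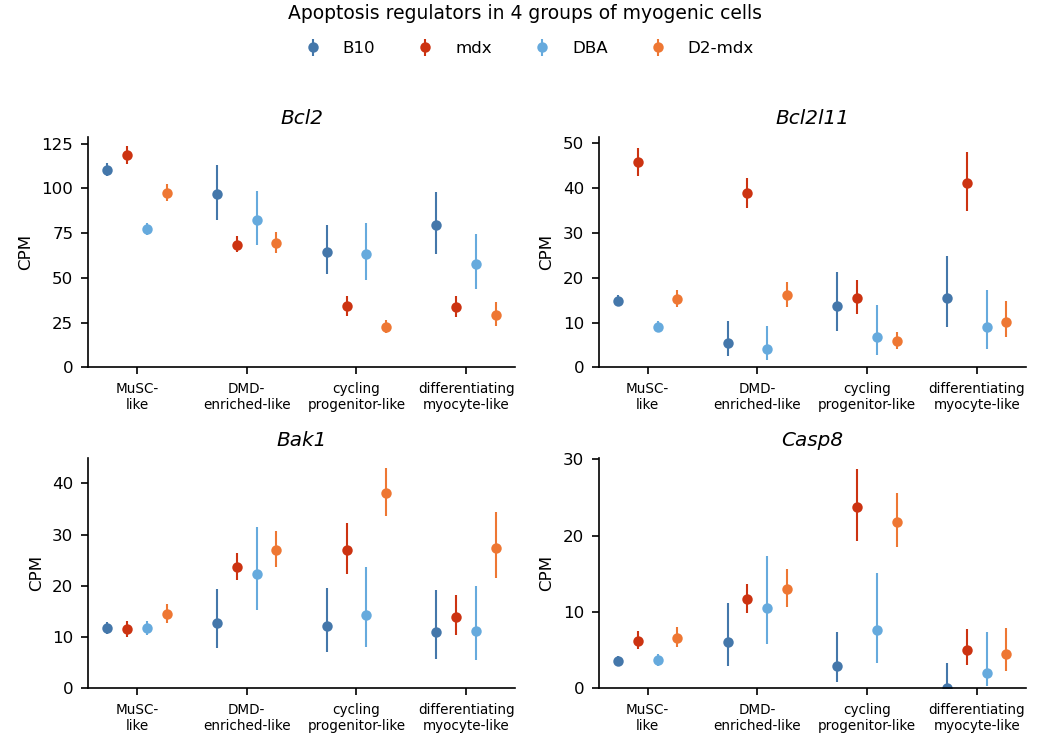
Levels of *Bcl2*, *Bcl2l11*, *Bak1* and *Casp8* (CPM, each panel on its own axis from 0) in 4 groups of myogenic cells of the 4 libraries, with exact Poisson 95% intervals that cover counting error only. In cycling progenitor-like cells *Bcl2* is lower in *mdx* and D2-*mdx* (34.0 and 22.7) than in B10 and DBA (64.5 and 63.2), and *Bak1* is higher (26.9 and 38.2 against 12.2 and 14.4).

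Outside MuSC-like cells, *Bcl2l11* was read state by state, and whether its ratios differ between the models was not tested. In DMD-enriched-like cells it rested on 9 UMIs in B10 against 518 in *mdx* and 6 in DBA against 136 in D2-*mdx*, or 5.45 CPM (2.49 to 10.3), 38.9 (35.6 to 42.4), 4.19 (1.54 to 9.12) and 16.2 (13.6 to 19.1). The log2 ratios were 2.83 (1.90 to 3.97) and 1.95 (0.79 to 3.42). In differentiating myocyte-like cells the level was 41.1 CPM (34.9 to 48.0) in *mdx* against 15.5 (9.04 to 24.8) in B10, a log2 ratio of 1.41 (0.68 to 2.22), and 10.1 (6.68 to 14.7) in D2-*mdx* against 9.11 (4.16 to 17.3) in DBA, or 0.15 (-0.98 to 1.43). In cycling progenitor-like cells the dystrophic and healthy levels were not separated, at 0.18 (-0.58 to 0.99) and -0.21 (-1.39 to 1.19). Over the states with at least 15 cells in both libraries, *Bcl2l11* was higher in *mdx* than in B10 in 8 of 8, with the interval above 0 in 7, and in D2-*mdx* than in DBA in 6 of 7, with the interval above 0 in 3. *Casp8* was higher in 8 of 8 and 7 of 7, with the interval above 0 in 6 and 3, *Bak1* in 5 of 8 and 7 of 7, with the interval above 0 in 2 and 3, and *Bcl2* in 3 of 8 and 3 of 7. These are intervals of the ratio, which can lie above 0 where those of the levels overlap. The *Casp8* ratios in differentiating myocyte-like cells and in a cluster led by *Ifit1* (immunomyoblast-like) rest on 0 and 1 UMIs in B10. Between the dystrophic strains, *Bcl2l11* was lower in D2-*mdx* than in *mdx* in 8 of 8 states, each with its interval below 0, by log2 ratios from -2.11 to -1.26. Clusters of 1 library share its mice and its preparation and are not replicates of each other.

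The UMIs of the pro-survival genes *Bcl2*, *Bcl2l1* and *Mcl1* were set against those of *Bcl2l11*, *Bid*, *Bad* and *Bak1* within each library. Left out were the effectors *Bax* and *Bok*, BH3-only genes such as *Bbc3*, and the pro-survival gene *Bcl2l2*. *Bax* stood at 77.1 CPM in B10 and 146 in D2-*mdx*, where the opposing genes summed to 68.7 and 100, so the quotient depends on leaving it out. No quotient with the genes left out was taken. Levels are not compared between genes, so the quotient is read between libraries only and its size is not interpreted. There were 6.89 pro-survival UMIs per UMI of the opposing genes in the myogenic cells of B10, 4.18 in *mdx*, with 5.83 in DBA against 4.65 in D2-*mdx*. In MuSC-like cells the quotient was 7.06 in B10 against 5.36 in *mdx* and 5.99 in DBA against 7.08 in D2-*mdx*, lower in *mdx* than in its control and higher in D2-*mdx* than in its control. In cycling progenitor-like cells it was 5.36, 3.15, 4.03 and 2.26, in differentiating myocyte-like cells 4.57, 2.67, 4.32 and 2.62, and in DMD-enriched-like cells 6.76, 3.39, 5.41 and 3.40, in the same order of libraries. It was lower in both dystrophic libraries in each of these 3 states. *Mcl1* makes up 63.6% of the summed UMIs of the 9 genes in B10, so the quotient is led by that gene, and transcripts are not protein.

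Across cell states, each level was averaged over the libraries that hold at least 50 cells of the state. For the non-myogenic types other than pericyte-like cells, these were dystrophic libraries alone. A difference between such a type and a state averaged over 4 libraries therefore also holds the difference between dystrophic and healthy libraries. *Mcl1* stood highest in white blood cell-like cells, at 651 CPM (623 to 680 over 2 libraries), and second in the MuSC-like cluster with high immediate-early genes, at 470.0 CPM (348 to 587 over 4). In the MuSC-like cluster with low immediate-early genes it stood at 208 CPM (176 to 263), below the other MuSC-like cluster in each library. Immediate-early genes are induced by stimulation and by the dissociation of tissue, and the 18 listed summed to 46683 CPM in the myogenic cells of B10, 36604 in *mdx*, with 38188 in DBA against 36003 in D2-*mdx*. Over 29 profiles of a myogenic state in a library, *Mcl1* correlated with that sum at r = 0.88, and the profiles share libraries and depth. The part of the immediate-early genes in the *Mcl1* levels was not tested.

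**Figure D4:**
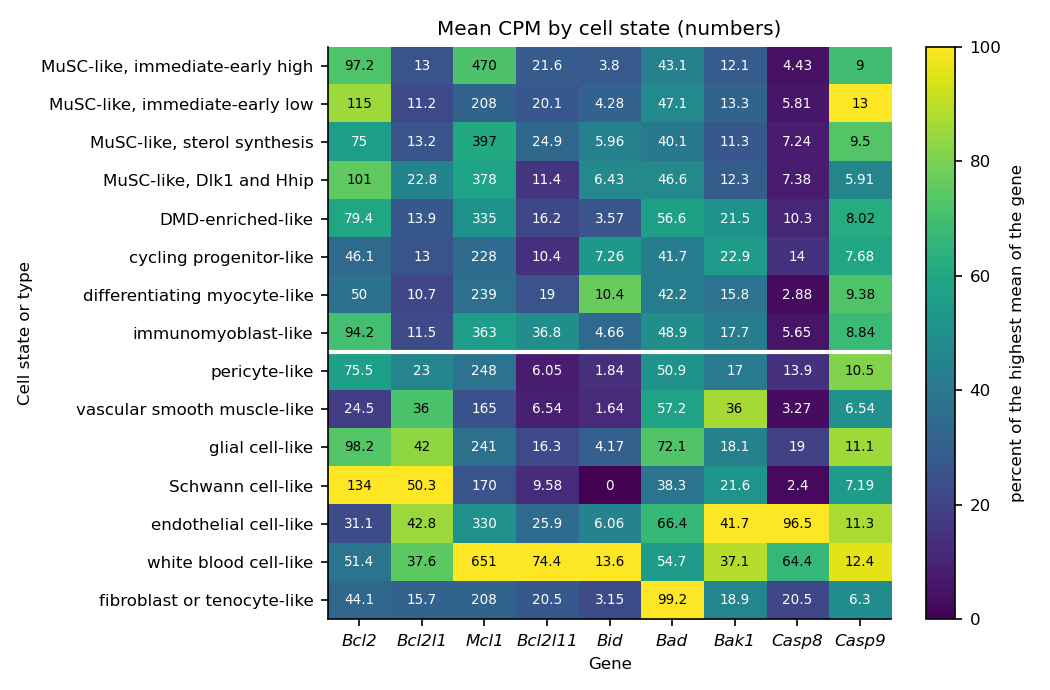
Mean levels (numbers, CPM) of the 9 apoptosis regulators (columns) in the myogenic states above the white line and the non-myogenic cell types below it, each over the libraries with at least 50 cells, with the colour giving the percent of the highest mean of that gene. For the types below the line other than pericyte-like cells, these are dystrophic libraries alone. *Casp8* is highest in endothelial cell-like cells (96.5 CPM) and *Mcl1* in white blood cell-like cells (651 CPM).

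*Casp8* varied between cell types: it stood at 96.5 CPM in endothelial cell-like cells (96.1 to 96.9 over 2 libraries), 64.4 in white blood cell-like cells (46.3 to 82.5 over 2) and 19.0 in glial cell-like cells (17.7 to 20.2 over 2). The ranges over libraries of these neighbours did not overlap. In *mdx* the counting intervals of endothelial cell-like (83.6 to 110) and white blood cell-like cells (66.2 to 101) did. The myogenic states with 4 libraries stood at 4.43 to 14.0, other than differentiating myocyte-like cells, at 2.87. In *mdx* and D2-*mdx* alone, the libraries of the glial value, cycling progenitor-like cells stood at 23.7 and 21.8 CPM, beside 20.2 and 17.7 in glial cell-like cells. *Bak1* was also highest in endothelial cell-like cells, at 41.7 CPM, and in white blood cell-like cells, at 37.1, with overlapping ranges, and *Bcl2l11* in white blood cell-like cells, at 74.4 (39.5 to 109). *Bcl2l11* was lowest in pericyte-like cells, at 6.05 CPM (4.79 to 7.09 over 4 libraries). *Bcl2* stood at 115 CPM in MuSC-like cells with low immediate-early genes (80.0 to 134) and at 46.1 in cycling progenitor-like cells (22.7 to 64.5). In endothelial cell-like cells it stood at 31.1 (27.8 to 34.4), over *mdx* and D2-*mdx* alone. The levels of these libraries in cycling progenitor-like cells, given above, overlap with that range. *Bcl2l1* stood at 42.8 CPM in endothelial cell-like and 42 in glial cell-like cells, against 10.7 in differentiating myocyte-like cells. *Bad* stood at 72.1 CPM in glial cell-like cells and 56.6 in DMD-enriched-like cells, *Bid* at 13.6 in white blood cell-like and 10.4 in differentiating myocyte-like cells, and *Casp9* between 5.91 and 13.0 over the states with at least 2 libraries. Over the 12 states with at least 2 libraries, ordered by level, the ranges over libraries of neighbours were compared, without counting error. Of the 11 neighbouring pairs, 10 overlapped for *Bcl2* and *Bcl2l1*, 9 for *Mcl1* and *Casp8*, and 11 for each of the other 5 genes. At least 1 pair without overlap was found for 4 of the 9, beside 62.7% of the 11415 genes that reached a mean of 10 CPM in a state, and at least 2 for *Mcl1* and *Casp8*, beside 24.3%.

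Pericyte-like cells, the most numerous non-myogenic type, had *Bcl2* at 96.3 CPM in B10 against 53.7 in *mdx* and 93.9 in DBA against 58.3 in D2-*mdx*. Both dystrophic libraries were lower, with log2 ratios of -0.84 (-1.18 to -0.50) and -0.69 (-0.87 to -0.50). *Bad* in these cells was higher in both, with 0.75 (0.25 to 1.28) and 0.96 (0.73 to 1.20), and *Bak1* was separated only in D2-*mdx*, with 0.25 (-0.50 to 1.09) and 1.01 (0.58 to 1.46). *Bcl2l11* was not separated in pericyte-like cells, at -0.18 (-1.40 to 1.25) and 0.57 (-0.13 to 1.29). Whether these ratios differ from those of myogenic cells was not tested.

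In single cells, the share with at least 1 UMI was taken after each myogenic cell had been thinned to 3000 UMIs, leaving out 39 shallower cells of B10. *Bcl2l11* was detected in 4.38% (3.80 to 5.03) of cells of B10, 11.6% (10.7 to 12.5) of *mdx*, 2.26% (1.73 to 2.89) of DBA and 4.04% (3.46 to 4.68) of D2-*mdx*. The unthinned shares were 10.5%, 24.1%, 8.74% and 9.49%, at median depths of 8424, 6848, 10294.5 and 6475 UMIs. *Casp8* was detected in 1.19%, 2.43%, 1.07% and 2.41% of the thinned cells, and in 2.81%, 7.10%, 4.22% and 8.03% of the unthinned. The share with *Ptprc*, a white blood cell gene that satellite cells should lack, was at most 0.263% of the thinned myogenic cells of a library and 0.574% of the unthinned, both in D2-*mdx*. This is the share of a single marker, which sets no floor for other genes and does not cover RNA of endothelial cells. The part of RNA from other cell types in the shares of *Bcl2l11* and *Casp8* was not tested. *Bcl2* was detected in 28.3%, 24.2%, 20.9% and 20.3% of thinned cells, *Mcl1* in 57.9%, 61.1%, 54.3% and 65.1%, *Bad* in 10.4%, 13.0%, 11.3% and 14.6%, and *Bak1* in 3.68%, 4.32%, 3.15% and 5.64%, each in the order B10, *mdx*, DBA, D2-*mdx*. *Casp9* was detected in 3.84%, 3.86%, 1.81% and 1.77%, low in both libraries of the DBA/2 background.

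The 9 regulators were read beside 45 further genes of 11 lists of the apoptosis machinery. With the regulators included, 32 of 54 passed 10 CPM in the first comparison, of which 8 were at least 1.5-fold higher in *mdx* and 1 lower, *Birc3* at -0.66, beside the 10.3% and 13.6% of all genes given above. In the second, 33 passed, of which 11 were higher in D2-*mdx* and 1 lower, *Xiap* at -0.63, beside 13.0% and 17.6%. Of the 8, *Bbc3*, *Casp6* and *Birc5* passed only through *mdx*, and of the 11, *Bcl2l11*, *Bbc3*, *Bik*, *Casp8*, *Casp4* and *Birc5* only through D2-*mdx*. Among list genes at 10 CPM in both libraries, 5 of 28 were higher in *mdx*, beside 7.92% of 7433 genes, and 5 of 26 in D2-*mdx*, beside 9.82%. Of the 30 that passed in both comparisons, 27 had the same sign, or 90.0%, against 83.7% of the 8160 genes that did. By list, 2 of 3 BH3-only genes that passed were at least 1.5-fold higher in *mdx* and 3 of 4 in D2-*mdx*, of which 1 and 3 passed only through the dystrophic library, and 0 of 4 pro-survival genes were in either. Among BH3-only genes at 10 CPM in both libraries of a pair, 1 of 2 was higher in *mdx* and 0 of 1 in D2-*mdx*, beside the 7.92% and 9.82% of all genes. The inhibitors of apoptosis proteins had medians of -0.36 and -0.19 over 5 genes, against -0.03 and -0.07 over all genes compared. Within this list, *Xiap*, *Birc2* and *Birc6* were negative in both comparisons. *Birc5* was at 3.71 and 3.88, and *Birc3* was at 0.12 in D2-*mdx*. Of the 2 necroptosis genes, 0 passed. Below the minimum, *Ripk3* had 1 UMI in B10 against 46 in *mdx* and 4 in DBA against 90 in D2-*mdx*. *Mlkl* had 17 against 58 and 3 against 71.

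Among these genes, *Bax*, the partner effector of BAK, stood at 77.1 CPM in B10 against 123 in *mdx* and 80.4 in DBA against 146 in D2-*mdx*, with log2 ratios of 0.68 and 0.86 over all myogenic cells and 0.21 and 0.43 in MuSC-like cells. *Bbc3*, the gene of the p53-induced BH3-only protein PUMA, stood at 4.64, 15.6, 3.95 and 11.4 CPM, in the same order, with 1.75 (1.51 to 2.00) and 1.53 (1.23 to 1.84), and *Bik*, a further BH3-only gene, at 0.476, 1.44, 0.531 and 12.6, with 4.57 (3.85 to 5.39) in D2-*mdx* over DBA. *Bbc3* in both comparisons and *Bik* in the second passed the minimum only through the dystrophic library, so their place among the higher genes was set in part by the minimum. *Casp6*, a caspase gene whose protein is activated by other caspases, had log2 ratios of 1.29 in *mdx* and 0.93 in D2-*mdx*. *Cycs*, the gene of cytochrome c, stood at 106, 174, 106 and 259 CPM, with 0.71 and 1.28 over all myogenic cells, and its ratio in *mdx* was negative in MuSC-like cells, at -0.10. *Tnfrsf12a*, the receptor of the cytokine TWEAK, stood at 55.9, 128, 32.4 and 127 CPM, with 1.19 and 1.97. *Birc5*, the gene of survivin, which acts in mitosis as well, had the highest ratios of the genes that passed in both comparisons, 3.71 and 3.88. They were 2.09 and 1.57 with states weighted equally, and *Birc5* is among the leading genes of the cycling progenitor-like cluster, which held a larger share of the dystrophic libraries. *Casp4*, an inflammatory caspase, stood at 1.49 CPM in DBA and 11.3 in D2-*mdx*, a log2 ratio of 2.92 (2.47 to 3.40).

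**Figure D5:**
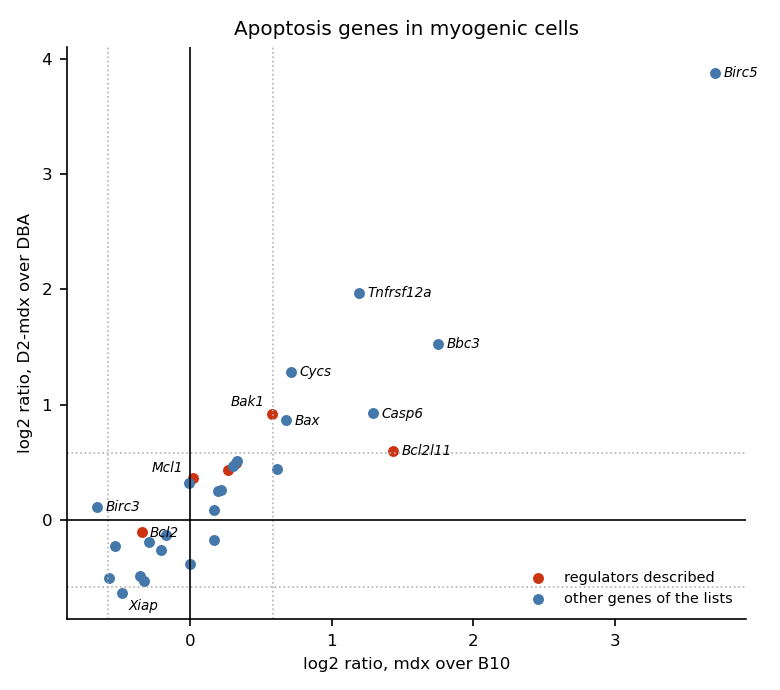
Log2 ratios of the apoptosis list genes with at least 10 CPM in both comparisons, with *mdx* against B10 on the horizontal axis and D2-*mdx* against DBA on the vertical, the 6 regulators described here that pass in both in red, the other list genes in blue and dotted lines at 1.5-fold. Of the 30 genes, 27 lie in the quadrants of equal sign, with *Birc5* farthest out at 3.71 and 3.88.

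Genes with profiles most like those of the regulators were sought over 42 profiles of a state or cell type in a library with at least 50 cells, among 6324 genes with a mean of at least 20 CPM, by Pearson's r of log2(CPM + 10). The profiles share 4 libraries and their depth, and r is given as a description. *Mcl1* was most like *Dusp1* (r = 0.83), *Nfkbiz* (0.80) and *Trib1* (0.79), of which *Dusp1* is among the immediate-early genes listed. *Bcl2* was most like *Phf3* (0.83), *Akap8l* (0.83) and *Pnisr* (0.83), and *Bcl2l1* like *Il10rb* (0.83), *Arpc5* (0.82) and *Stx7* (0.82). *Bak1* was most like *Prelid1* (0.83), *Atox1* (0.82) and *Arpc2* (0.82). Of the BH3-only genes, *Bcl2l11* was most like *Tsc22d3* (0.71), *Gm9843* (0.69) and *Cebpzos* (0.68), *Bid* like *Ptp4a2* (0.68), *Stk17b* (0.66) and *Pin4* (0.66), and *Bad* like *Fam195b* (0.75), *Kdelr1* (0.74) and *Leprot* (0.72). *Casp8* was most like *Hpcal1* (0.91), *Fabp5* (0.90) and *Sdcbp* (0.90). *Casp9* was most like *Chfr* (0.65), *Zzef1* (0.65) and *Trappc6a* (0.64). Over the 29 myogenic profiles alone, r was 0.55, 0.35 and 0.12 for the 3 genes most like *Bcl2l1*, 0.54 for *Casp8* with *Hpcal1*, and between 0.44 and 0.92 for the rest. Among the 9 regulators themselves, the highest r was that of *Bak1* with *Casp8*, at 0.71 over all profiles and 0.69 over the myogenic ones, and the lowest that of *Bcl2* with *Bak1*, at -0.66 and -0.59.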

How the data were processed

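The deposited values are counts of UMIs per gene and barcode, which the authors made with Cell Ranger 3.0.1 on mm10 and did not normalize; 0 further columns of values were present. The 9 genes and all lists were chosen with earlier results of these data known. A gene of the lists is not reported here and enters no count of list genes. Kept cells had 1000 to 5000 genes and no more than 8% mitochondrial UMIs, and predicted doublets (Scrublet in scanpy 1.11.5, an expected fraction of 0.008 per 1000 cells) were removed: 181 in B10 against 356 in *mdx* and 91 in DBA against 293 in D2-*mdx*. Mature myonuclei were not removed. Libraries were integrated in Seurat 5.3.0 (R 4.3.3; 2000 features, 30 dimensions) then clustered (resolution 0.1, and 0.2 among myogenic cells), and each cluster took the name whose standardized markers, at least 3 of them detected, had the highest mean. UMIs were summed per library and state and scaled to CPM. With 1 library per strain no test was run; counts past 1.5-fold cover genes that reach 10 CPM in either library. A level of 0 was set to a floor of 3 counts. Depth per library is given by the counting interval beside each value. Named genes are the 9 regulators, list genes at 1.5-fold in both comparisons with the same sign, any past 3-fold, and the 3 genes of most similar profile. Alternatives changed cell filters, doublets, clustering, integration, scaling (edgeR 4.0.16 and DESeq2 1.42.0 library sizes), the cells summed, the minimum and the fold. Positions are from GENCODE M21, and promoters, with 9 of 9 genes matched, from RefSeq on GRCm38.p6. Computations used Python 3.11.15, numpy 2.4.6, scipy 1.17.1, pandas 2.3.3 and matplotlib 3.10.9, and the ratios and intervals were tested on simulated data.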

Additional observations from a re-analysis of the deposited data

Results flagged for a closer look

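Cells with more than 5000 genes enter no comparison above. They are described apart because the ratio intervals of *Bak1*, *Casp8* and *Bad* lay above 0 there in both pairs. The share of all genes with this pattern was not taken, so it cannot be read as particular to the regulators. There were 41 cells with more than 5000 genes in B10 against 213 in *mdx* and 128 in DBA against 498 in D2-*mdx*. Doublets were not removed from them and they were not divided into cell types, so they can hold doublets and non-myogenic cells. *Bak1* stood at 10.8 CPM in B10 against 37.6 in *mdx* and 20.4 in DBA against 37.3 in D2-*mdx*, with log2 ratios of 1.80 (0.98 to 2.77) in *mdx* over B10 and 0.87 (0.56 to 1.19) in D2-*mdx* over DBA. *Casp8* stood at 12.6, 27.6, 15.8 and 27.3 CPM, in the same order, with log2 ratios of 1.13 (0.36 to 2.02) and 0.79 (0.44 to 1.15). *Bad* stood at 36.0, 55.6, 35.8 and 57.7 CPM, with log2 ratios of 0.63 (0.16 to 1.13) and 0.69 (0.46 to 0.93). *Bcl2*, by contrast, stood at 86.4, 27.7, 60.5 and 16.9 CPM. *Mcl1* was also lower in both pairs, with log2 ratios of -0.50 (-0.67 to -0.32) and -0.35 (-0.44 to -0.25). *Bcl2l11* was not separated in either, at 0.50 (-0.22 to 1.31) and 0.23 (-0.22 to 0.70).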

How the results depend on the processing

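No paired analysis was possible because each strain is 1 library, so the groups share fewer than 2 replicate numbers. Leaving out a replicate could not be done for the same reason. *Casp8* kept its sign in *mdx* and D2-*mdx* under all 9 alternatives of cells and scaling, with log2 ratios from 0.81 to 1.98 and from 0.85 to 1.73, as did *Bcl2l11*, from 1.28 to 1.63 and from 0.50 to 0.80. *Bcl2* kept it under 8 of 9 in *mdx* and 7 of 9 in D2-*mdx*, *Bak1* under 8 of 9 in *mdx*, *Bid* under 8 of 9 and *Mcl1* under 6 of 9. *Cycs* in *mdx* turned to -0.097 in MuSC-like cells alone. The counts of regulators or list genes past 1.5-fold rest on the setting. The cause was not tested except where the setting itself removes or adds genes. Apart from the 2-fold setting, the share of all genes past the fold was not taken under the alternatives. The count of regulators higher in *mdx*, 1 as reported, was 3 with at least 500 genes and no upper limit, 2 with doublets kept, 3 with TMM library sizes, 2 with DESeq2 size factors, 4 over all cells, 2 with states weighted equally, 0 with a minimum of 50 CPM and 2 with none. That in D2-*mdx*, 3, was 0 with a minimum of 50 CPM and 1 at 2-fold. The list genes higher in *mdx*, 8, were 14 over all cells, 5 with per-cell means, 3 with a minimum of 50 CPM, 18 with none and 5 at 2-fold, and those in D2-*mdx*, 11, were 3 with a minimum of 50 CPM, 21 with none and 7 at 2-fold. The list genes lower in *mdx*, 1, were 3 with at least 500 genes, 2 at 5% mitochondrial UMIs, 2 with doublets kept, 5 with no minimum, and 0 with per-cell means, MuSC-like cells, all cells, states weighted equally, 50 CPM or 2-fold. Those in D2-*mdx*, 1, were 3 with at least 500 genes, 6 with no minimum, and 0 with TMM, DESeq2, all cells or 2-fold. The count of regulators lower stayed at 0. Without integration only 3 states had values.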

Other observations

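Barcodes with fewer than 1000 genes, left out above, numbered 4739 in B10 against 21 in *mdx* and 11 in DBA against 17 in D2-*mdx*. Haemoglobin genes took 4.04% of their UMIs in B10 against 75.5% in *mdx* and 97.0% in DBA against 89.5% in D2-*mdx*, against at most 0.0925% in the myogenic cells of a library. *Bcl2l1*, the gene of BCL-XL, which is known to keep erythroid cells alive late in their maturation, had 4 UMIs in these barcodes of *mdx*, 7 of DBA and 5 of D2-*mdx*, while *Bcl2* and *Mcl1* together had 6, 0 and 2. In B10, where haemoglobin took the smaller share, *Bcl2l1* had 27 UMIs and *Bcl2* and *Mcl1* had 878. These counts are small and no test was made.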
